A study of Drosophila melanogaster with 2 samples.

Results

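The genes described here are 10 genes of Dpp signalling in Drosophila melanogaster: the ligand gene dpp, the receptor genes tkv and put, the Smad genes Mad and Med, the cofactor gene shn, the extracellular and intracellular antagonists sog and Dad, the repressor gene brk and the target gene bi. They were taken by name from the 13945 protein-coding genes of the Ensembl annotation on the 6 main chromosome arms. Every peak summit of the authors' thresholded list was given to a gene when it lay in the gene body. A summit within 10 kb of the body was given to the gene that owned the nearest annotated protein-coding transcript start. By this rule 35 of the 3953 thresholded summits belonged to 9 of the 10 genes, and dpp had none.

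The data are peak lists from chromatin immunoprecipitation and sequencing (ChIP-seq) of l(3)neo38, a zinc finger protein. All samples formed 1 group of 2 biological replicates. Both came from whole embryos of mixed sex, 0 to 24 h old, of a transgenic line that stably expresses the l(3)neo38 protein with GFP at its C terminus, and both were precipitated through GFP. Untagged embryos, other tags and single stages were not analysed here, so peaks are described within the lists and no conditions are compared. In whole embryos, binding in fewer cells and weaker binding in each cell cannot be told apart.

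Dpp is the fly homologue of the vertebrate bone morphogenetic proteins 2 and 4. It binds the type I receptor Tkv and the type II receptor Put, and the activated receptors phosphorylate Mad, which enters the nucleus with the common Smad, Med. A main output is repression of brk: Mad and Med bind a short silencer element, recruit Shn and shut brk off. Brk itself represses Dpp targets such as bi, also known as optomotor-blind, so that Dpp switches these targets on largely by removing Brk. In the early embryo Dpp patterns the dorsal ectoderm, while brk and sog are transcribed in the neurogenic ectoderm of the flank.

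Sequences are given for 6 of the 35 summits, namely the strongest at brk, bi and Dad, the promoter summits of brk and bi, and a weak brk summit shown for its match to the brk silencer element. All 6 contain a motif that was searched for, so they do not stand for the rest. Each is the window of 101 bases centred on the summit, read 5′ to 3′ on the plus strand of release 6 (dm6). At the strongest brk summit, X:7306736-7306836, capitals mark overlapping C-rich octamers, which here read as their reverse complement. At Dad, 3R:17056739-17056839, capitals mark the same octamer family on the plus strand. At the brk promoter, X:7307663-7307763, and upstream of the last bi start, X:4426919-4427019, capitals mark the letters of GAGAG or CTCTC, the repeat bound by GAGA factor. At the strongest bi summit, X:4411569-4411669, they mark GGCGTT, a Brk recognition word. At the brk summit farthest from its start, X:7299870-7299970, they mark a match to the brk silencer element.
brk, strongest summit: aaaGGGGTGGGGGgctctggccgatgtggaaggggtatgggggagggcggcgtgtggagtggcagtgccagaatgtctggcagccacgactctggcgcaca
Dad, strongest summit: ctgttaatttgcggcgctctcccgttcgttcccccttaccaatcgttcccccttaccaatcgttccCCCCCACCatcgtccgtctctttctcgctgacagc
brk, promoter summit: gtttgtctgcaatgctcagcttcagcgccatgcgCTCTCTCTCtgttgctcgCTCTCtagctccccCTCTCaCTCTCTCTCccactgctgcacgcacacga
bi, promoter summit: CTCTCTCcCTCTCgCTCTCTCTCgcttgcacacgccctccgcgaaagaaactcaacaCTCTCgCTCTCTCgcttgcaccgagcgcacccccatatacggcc
bi, strongest summit: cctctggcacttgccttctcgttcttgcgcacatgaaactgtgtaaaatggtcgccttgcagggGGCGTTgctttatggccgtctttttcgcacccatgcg
brk, farthest summit: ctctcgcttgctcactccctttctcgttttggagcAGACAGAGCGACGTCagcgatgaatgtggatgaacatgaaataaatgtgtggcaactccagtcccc

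Summits were frequent at these genes, and the genes are long. At least 1 summit was found at 9 of the 10 genes, against 14.5% of all protein-coding genes by the same rule. At least 5 summits were found at 3 of the 10 (shn, brk and bi), against 1.20% of all genes. A promoter summit, within 500 bp of an annotated start of the gene, was present at 4 of the 10 (brk, bi, shn and Med), against 8.24% of all genes. The median length was 23277 bp for the 10 genes and 2166 bp for all protein-coding genes. Among the 4912 genes no shorter than brk and no longer than bi, the shortest and longest of the 10, 27.0% had a summit. How much of the count goes with gene length was not tested. The 10 genes were chosen with earlier results of these data known, so their counts describe them and are not a test.

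The 35 summits had a median signal value of 263.9, the peak strength that the authors deposited, and ranged from 147.4 to 1776. All 3953 thresholded peaks had a median of 209.6 and ranged from 140.7 to 3625. The stronger 1976 peaks of the list held 21 of the 35 summits. The spread within the genes was wide, since brk, bi and Dad each had a summit among the 64 strongest peaks of the list while no tkv or put summit exceeded 228.9. Of the 35, 24 lay in introns of the gene itself, 10 upstream of it and 1 in an exon. Promoter summits were 4 of the 35, or 11.4%, and 28.9% of all thresholded summits lay within 500 bp of a protein-coding start. More than 2000 bp from any start of the gene lay 17 of the 35. The shares of all thresholded summits in introns, upstream or that far from a start are not given here. These placements are therefore not shown to be particular to the 10 genes, which are long.

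**Figure D1:**
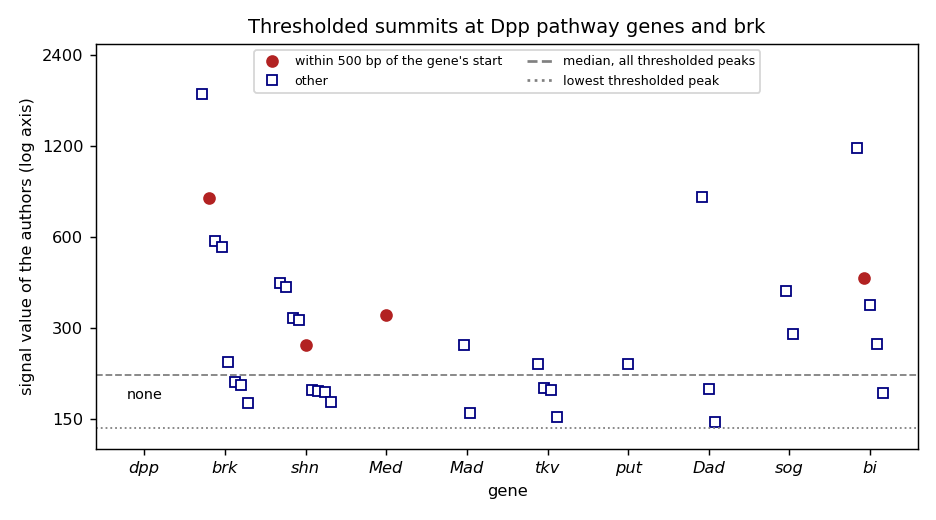
Signal value of each thresholded summit (log axis, the authors' peak strength) for the 10 genes, with 1 marker per summit. Filled circles are summits within 500 bp of a start of the gene, the dashed line is the median of all thresholded peaks (209.6) and the dotted line the weakest (140.7). The highest points are at brk, bi and Dad, and dpp has none.

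The repressor gene brk (FBgn0024250, X 7307939 to 7311132, plus strand) held the strongest peak of the set. Its 8 summits were all upstream of its start, across 7793 bp, and none lay in the gene body. The strongest had its summit at X 7306786, 1153 bp upstream, with a signal value of 1776. It ranked 6th in the thresholded list, 4th in replicate 1 and 5th in replicate 2, so both replicates placed it near the top. The promoter summit at X 7307713, 226 bp upstream, had a signal value of 807.5 and ranked 65th, with ranks of 128 and 39 in the replicates. Its interval, X 7307379 to 7307938, ended 1 bp before the annotated brk start.

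The other 6 brk summits lay from 2039 to 8019 bp upstream. The strongest of them, at X 7304941 and 2998 bp from the start, reached a signal value of 581.9 and ranked 257th in replicate 1 and 168th in replicate 2. Beyond it a wide interval from X 7300402 to 7301372 held 2 summits, at 6906 bp with a signal value of 554.2 and at 6703 bp with 231.5. Replicate 2 had summits at both places, ranked 94th and 1794th. Replicate 1 had no summit within 100 bp of the stronger, and its strongest entry over the interval ranked 316th and matched the weaker. The replicates thus differed in where the top of this peak lay, while both had a strong entry there. The remaining 3 summits, at 2039, 6020 and 8019 bp, had signal values from 170.0 to 199.7. The one at 8019 bp ranked 3945th in replicate 1 and 1088th in replicate 2, and the one at 2039 bp ranked 1381st and 5423rd, outside the 3953 strongest of replicate 2.

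These 8 summits lie inside other genes. brk itself sits in an intron of CG1677 (X 7281089 to 7405797, 124.7 kb, minus strand), and that intron runs from X 7286196 to 7358660. The overlapping lncRNA:CR44357, 239.3 kb long, also spans them. The nearest protein-coding start was that of brk for all 8. When the nearest gene was taken by gene body in place of transcript start, all 8 went to CG1677 and brk had none. At least 8 summits were found at 53 protein-coding genes or 0.380%. Of the 8873 protein-coding genes no longer than brk, 2 had that many, CG43131 and brk. Body length does not bound this count, since all 8 brk summits lay outside the body. The nearest start of another protein-coding gene lay from 8622 to 16057 bp from them. Genes with as much space around them were not compared.

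Genes whose strongest summit ranked most like that of brk were sought over the 3 lists of replicate 1, replicate 2 and the pooled replicates. The closest was CG1677, through the same summit. Next came mirr, an Iroquois homeobox gene ranked 5th, 4th and 5th, with a summed absolute log2 rank ratio of 0.907. After it, level with each other, were cbt and ush, which share a summit ranked 6th, 6th and 7th, with 1.07.

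The target gene bi (FBgn0000179, X 4412856 to 4485647, plus strand) encodes a T-box transcription factor that Dpp activates in the wing disc. Its strongest summit lay outside the gene, at X 4411619, 1237 bp upstream of the first start. That summit had a signal value of 1176 and ranked 21st in the list, 13th in replicate 1 and 100th in replicate 2. The other 4 summits lay in the gene and upstream of the last of its 3 starts, at X 4427135. They stood 166, 1978, 3155 and 6741 bp before that start, with signal values of 437.9, 358.7, 266.3 and 183.7. Among these 4, signal fell with distance from the start. The summit at 166 bp ranked 571st in replicate 1 and 358th in replicate 2. Its interval ended 1 bp before the start, as at the brk promoter. For the other 4 bi summits the rank was better in replicate 1, as at 1978 bp, with 427 against 1931. All 5 lay in an intron of lncRNA:CR32773, a noncoding gene of 223.7 kb. The rest of the long gene held weaker pooled entries only, which are entries of the pooled list that overlap no thresholded peak. The strongest of its 45 such entries had a signal value of 103.5 and ranked 6303rd of 30000. Such entries also lay among the 4 summits, 1173 and 4843 bp before the last start, with signal values of 61.54 and 58.37.

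The cofactor gene shn (FBgn0003396, 2R 11159086 to 11217394, plus strand) encodes the large zinc finger protein that joins Mad and Med at the brk silencer. It had the most summits of the 10 genes, 9, all in its introns, and 41 protein-coding genes or 0.294% had as many. They lay from 14570 to 44170 bp from the 5′ end of the gene, between a point just before the second of its 5 annotated starts and the last of them, and none lay near the first. The strongest, at 2R 11195106 and 2R 11197261, had signal values of 424.2 and 409.4. Their ranks were 550 and 609 in replicate 1 and 427 and 449 in replicate 2. The promoter summit, 147 bp before the second start, had a signal value of 263.9 and ranked 2955th in replicate 1 but 502nd in replicate 2. The start of CG13229 lay 1450 bp from that summit. The other 6 had signal values from 171.3 to 323.3, and the weakest of them had no summit within 100 bp in replicate 2.

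**Figure D2:**
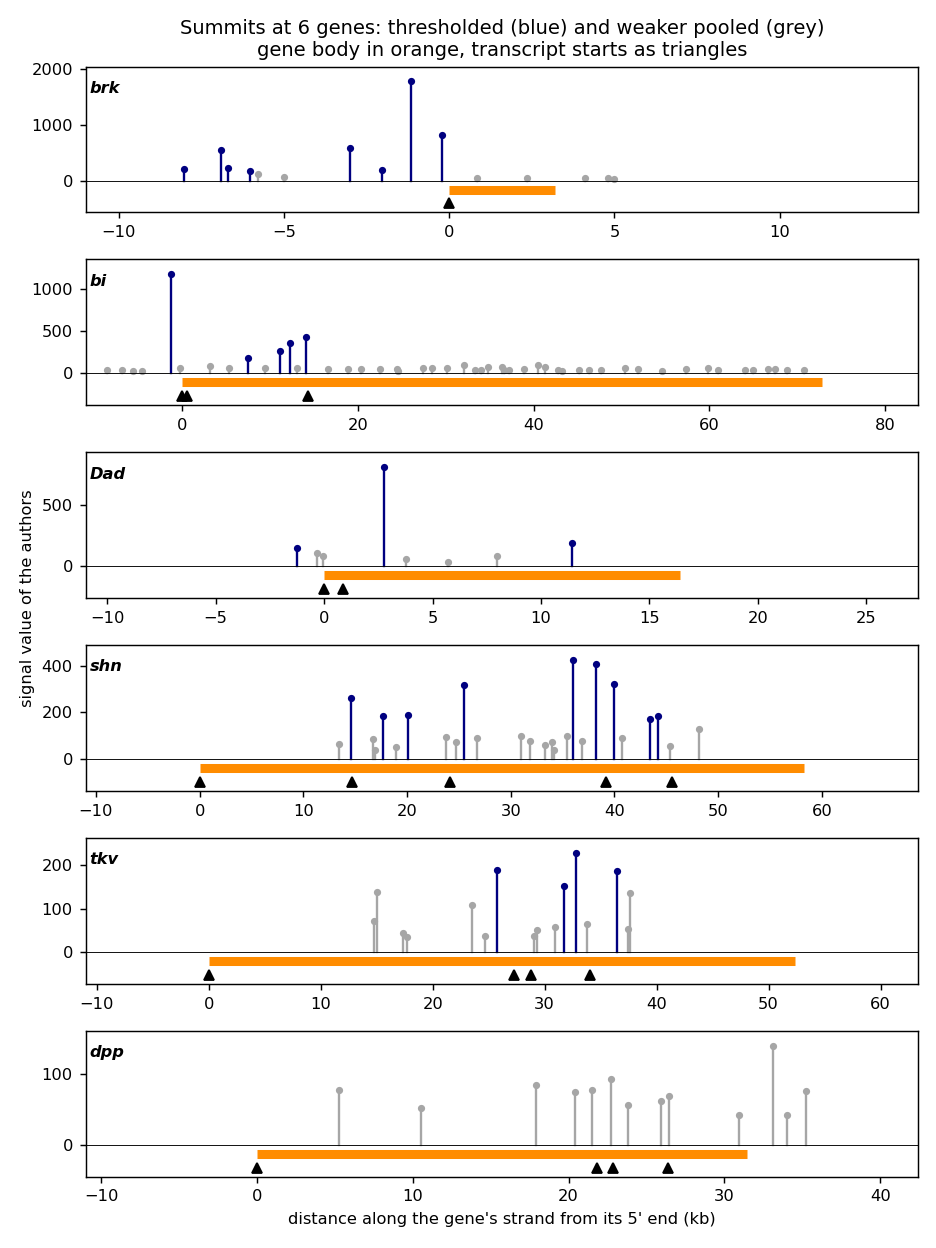
Signal value of the thresholded summits (blue) and of weaker pooled entries (grey) along 6 genes, against the distance in kb along the gene's strand from its 5′ end. The orange bar is the gene body, triangles are annotated starts, and each panel has its own axes. The brk summits are all upstream of the gene, those of bi stand before its first and last starts, and dpp has weaker entries only.

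The antagonist gene Dad (FBgn0020493, 3R 17054007 to 17070408, plus strand) encodes the inhibitory Smad, which Dpp induces and which limits the pathway. Its strongest summit was intronic, at 3R 17056789, 1892 bp downstream of the second start. It had a signal value of 814.7 and ranked 64th in the list, 83rd in replicate 1 and 52nd in replicate 2. The replicates placed this summit alike, and the other 2 unlike. An intronic summit at 3R 17065425, with a signal value of 189.6, ranked 2644th in replicate 1, and no entry of replicate 2 overlapped it. Its nearest protein-coding start, 7250 bp away, was that of Ns1. A summit 1247 bp upstream of the gene had a signal value of 147.4, the lowest of the 35, and ranked 8800th in replicate 1 (6218th by overlap of the interval) and 2555th in replicate 2. Closer in, a weaker pooled entry 319 bp before the first start had a signal value of 108.5. It had a matching summit in replicate 2 only, ranked 2514th. Another, 49 bp before that start, had 80.53 and matching summits in replicates 1 and 2, ranked 6280th and 11482nd.

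The other antagonist gene, sog (FBgn0003463, X 15603283 to 15633434, minus strand), encodes the secreted Chordin homologue that binds Dpp outside the cell. It had 2 intronic summits, 6806 and 17043 bp downstream of its second start. Their signal values were 396.9 and 287.0. The ranks were 494 and 622 for the nearer summit in replicates 1 and 2, and 1715 and 646 for the farther one. For the farther summit the nearest protein-coding start, 15963 bp away, was that of Chsy. sog had no promoter summit, and the strongest of its 8 weaker pooled entries had a signal value of 68.9.

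The receptor genes had weaker summits. tkv (FBgn0003716, 2L 5219000 to 5271384, minus strand) had 4, all intronic and from 25784 to 36425 bp from its 5′ end, a stretch that holds all of its 4 starts but the first. The strongest, at 2L 5238625, had a signal value of 228.7 and ranked 3820th in replicate 1 and 927th in replicate 2. The summit at 2L 5234959, with 187.7, ranked 4500th and 1392nd, so both of these stood higher in replicate 2. The remaining pair, with 190.4 and 152.8, ranked 3773rd and 2936th in replicate 1 and had no summit within 100 bp in replicate 2, although entries ranked 1478th and 3058th overlapped their intervals. put (FBgn0003169, 3R 14619030 to 14625703, minus strand) had 1 summit, in an intron 1136 bp downstream of its start, whose signal value was 228.9 and ranks of 1614 and 2062. The start of the histone gene His4r lay 1188 bp from it.

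The Smad genes had few summits. Med (FBgn0288966, 3R 31611046 to 31615375, plus strand), the common Smad, had 1 summit, in its 5′ UTR exon 262 bp downstream of its start, whose signal value was 331.8. It ranked 757th in replicate 1 and 1129th in replicate 2. It also lay in an intron of CycG and 330 bp from a CycG start, so it cannot be given to one of these genes by position. Mad (FBgn0011648, 2L 3146056 to 3159643, minus strand), the pathway-specific Smad, had 2 intronic summits. The one 687 bp upstream of its second start had a signal value of 265.0 and ranks of 1323 and 1597. The one 885 bp inside the first start had 158.0. It ranked 2079th in replicate 1. In replicate 2 the matching summit ranked 25887th, and the strongest entry over the interval ranked 7850th. This Mad summit lay 1192 bp from the start of gkt.

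The ligand gene dpp (FBgn0000490, 2L 2428372 to 2459823, plus strand) had no thresholded summit, and the nearest one lay 24173 bp from its body. Weaker pooled entries numbered 13. The strongest, at 2L 2461513, 1690 bp beyond the 3′ end, had a signal value of 139.9 and ranked 3989th, 36 places past the end of the thresholded list. It ranked 3171st in replicate 1, within the 3953 strongest there, and 6231st in replicate 2. The next, at 2L 2451096, lay in an intron 133 bp before a dpp start at 2L 2451229, with a signal value of 93.5 and a pooled rank of 7327. No entry given to dpp lay nearer to its first start than 5249 bp. Just inside the threshold stood the upstream Dad summit at 147.4, and just outside stood the dpp entry at 139.9 and a tkv entry at 138.3.

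The replicates were compared by summit position. Of the 35 summits, 26 or 74.3% (95% exact interval 56.7 to 87.5) had a partner summit no more than 100 bp away in the top 3953 of both replicates. For all thresholded summits it was 61.8% (95% exact interval 60.2 to 63.3), which lies inside that interval. Replicate 1 alone matched 31 of the 35 or 88.6%, and replicate 2 matched 29 or 82.9%. Of all thresholded summits, replicate 1 matched 81.8% and replicate 2 matched 77.1%. Of the 30 summits matched in both full lists, 15 ranked better in replicate 1, and of all matched summits 48.5% did. The thresholded list was derived from these replicates, so the shares are not independent evidence of agreement. The intervals cover counting error over summits only, and no depth is known.

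**Figure D3:**
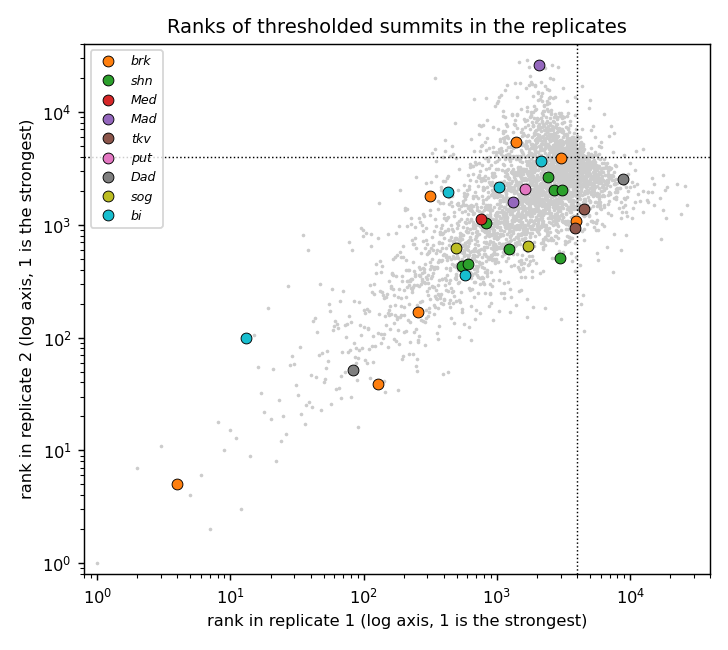
Rank in replicate 1 against rank in replicate 2 (log axes, rank 1 is the strongest) for the thresholded summits matched within 100 bp in both lists. Grey points are the 3595 matched summits of the whole list, coloured points the 30 of the 9 genes, and dotted lines mark rank 3953. The brk, bi and Dad points at lower left rank high in both, and a Mad point at rank 25887 in replicate 2 stands apart.

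What the windows around these summits share was described by short motifs, searched on both strands within 50 bp of the summit. The C-rich octamers CCCACCCC, CCCCACCC, CCCCCACC and CCACCCCC, known from earlier results of these data, were in 3 of the 35 windows or 8.57% (95% exact interval 1.80 to 23.1). All thresholded windows held them at 14.1%, within that interval, and the 24568 weaker pooled entries at 5.49%. Within 150 bp of the summit, the share stayed at 8.57% for the 35 summits and was 24.1% for all thresholded summits, above that interval. The 3 windows were 2 at brk, its strongest summit among them, and the strongest at Dad. The brk windows were those at 1153 and 6703 bp. The GAGA repeat, GAGAG, was in 15 of the 35 windows or 42.9% (95% exact interval 26.3 to 60.6), against 27.1% of all thresholded windows and 15.4% of weaker ones. The share of all thresholded windows lies just inside the interval. The promoter windows of brk and bi held 8 and 9 overlapping copies, and those of Med and shn 2 each. All 4 promoter windows thus held the repeat. The share of all thresholded windows near a start is not given here, so this is not shown to be particular to these genes.

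Words recognised by the pathway's own factors were in few of the windows. The Brk words searched were GGCGCC and GGCGCT, together with GGCGTC and also GGCGTT. They were in 5 of the 35 windows or 14.3%, and in 12.1% of all thresholded windows and 12.6% of weaker ones. The 5 windows included the brk promoter and the strongest bi and Dad summits. The Mad word GCCGNCG was in 1 window, the weaker Mad summit, or 2.86%, against 4.88% of all. The brk silencer element, searched as GNCGNC and, after any 5 bases, GTCT, was in 1 window or 2.86% (95% exact interval 0.0723 to 14.9), that of the brk summit at 8019 bp. It was in 0.228% of all thresholded windows, 9 of 3953. CAGGTA, the word of the early activator Zelda, was in 0 of 35, which allows a share of up to 8.57% by 3 counts or 10% by the exact upper limit, and in 1.92% of all. A match is a run of letters and does not show that the factor bound. GC content had a median of 50.5% in the 35 windows, from 26.7 to 66.3%, and a median of 50.5% in all.

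**Figure D4:**
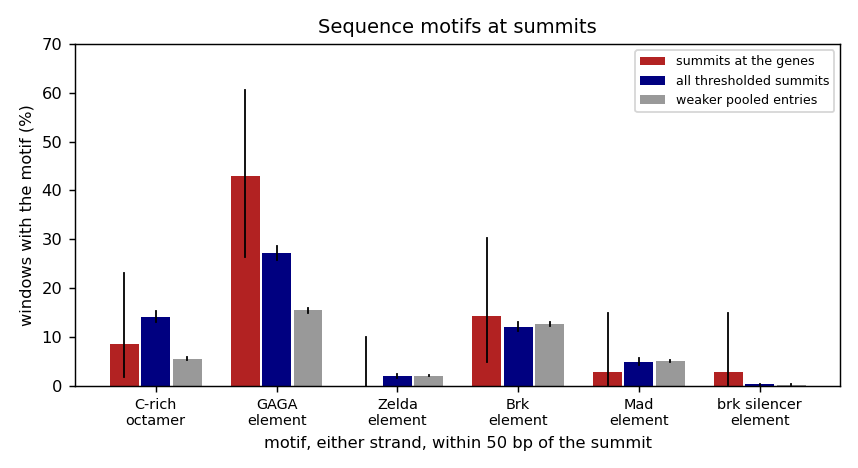
Share of windows (%) that hold each motif on either strand within 50 bp of the summit, for the 35 summits at the genes, all 3953 thresholded summits and the 24568 weaker pooled entries. Black lines are 95% exact intervals, for counting error only. The intervals of the 35 summits are wide and hold the share of all thresholded summits for the C-rich octamer, GAGA, Zelda, Brk, Mad and silencer motifs.

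Other genes of the pathway were read from a list of 47, which also takes in genes of the Activin branch, such as Smox. Promoter summits were found at 11 of them or 23.4% (95% exact interval 12.3 to 38), against the 8.24% of all protein-coding genes. At least 1 summit was found at 22 of the 47 or 46.8%, against 14.5%. These 22 leave out sax, whose promoter summit was nearer to another gene's start. Gene length was not taken into account, and how much of these shares goes with it was not tested. Of the 20 genes listed as targets or co-targets 8 had a promoter summit, or 40.0% (95% exact interval 19.1 to 63.9). Of the 27 ligands, receptors, proteoglycans and regulators 3 had one, or 11.1% (95% exact interval 2.35 to 29.2), namely sax, Smox and gro. The difference between these subsets was not tested.

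Like dpp, the other ligand genes gbb, scw, Actbeta, daw, mav and myo held no thresholded summit. Neither did tld, the gene of the protease that cleaves Sog, or its paralogue tok. By the same rule 14.5% of all protein-coding genes held one, so most genes have none. Among receptors, wit and babo had none, and sax, a type I receptor, had a promoter summit with a signal value of 199.4 that was nearer to another gene's start. It ranked 1650th in replicate 1 and 4747th in replicate 2. Smox, the Smad of the Activin branch, had a promoter summit of 517.1, ranked 273rd and 329th. The summit at gro, the Groucho corepressor gene, had 246.0 and ranked 939th and 4394th. Of these 3, Smox was placed alike by the replicates and the other 2 ranked lower in replicate 2.

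Target genes with promoter summits were led by tup, an Islet-class homeobox gene of the dorsal ectoderm, with a signal value of 913.5 and ranks of 51 and 43. Doc3, a Dorsocross T-box gene, had 528.5, and dve, a homeobox gene of the midgut, had 517.2. en, a segment polarity homeobox gene, had 481.5, tin, the heart determination gene, had 326.4, and pnr, a GATA factor gene, had 296.2. lab, a Hox gene induced by Dpp in the midgut, had 186.6, and vvl, a POU factor gene of the trachea, had 150.4. The replicate ranks of Doc3, dve and en lay between 260 and 371, while vvl ranked 7585th in replicate 1 and 2962nd in replicate 2. Among genes of the list with no promoter summit the strongest peaks were at ush and nmo. The summit at ush, a cofactor gene of GATA factors, had 1738 and lay 4856 bp from its start, and cbt shares it. That at nmo, a kinase gene, had 792.6 and lay 45411 bp from its start. The 7 targets with no summit were zen, zen2, Doc2, peb, Ance, eve and bam.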

How the data were processed

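Peak lists on dm6 were used from 2 biological replicates of 1 group. By the deposited descriptions, each replicate list holds peaks and background entries made from that replicate's alignments and a control, and the pooled list comes from the alignments of both. The thresholded list was derived from these 3 by the irreproducible discovery rate procedure. All 3953 of its peaks hold the same rank in the pooled list, so it consists of the 3953 strongest pooled entries. Of them, 118 had no summit within 100 bp in replicate 1 and 248 had none in replicate 2. The signal value of each entry, the authors' peak strength, was used to rank entries within a list only. How it was normalized, which peak caller made it and how deep each replicate was sequenced is not stated in the sources used here. Lists on dm3 were not used.

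Summits were placed with the Ensembl 115 annotation and the release 6 genome, with Python 3.11.15, NumPy 2.4.6 and SciPy 1.17.1. Replicate summits matched within 100 bp, and the strongest match gave the rank. A summit in 2 genes was counted for each gene when all genes were compared. Exact binomial intervals are at 95%. No test between conditions was possible.

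The 10 genes, the 47 other pathway genes, of which 2 were matched by older symbols, and the motifs were chosen with earlier results of these data known. Genes named are the 10, hosts of their summits and neighbours within 2000 bp, pathway genes with promoter summits and the 3 strongest, and the 3 most like brk. Genes without a summit, CG43131, the neighbours farther than 2000 bp and the genes in the CG1677 intron were named after their values were seen. The assignment and motif steps were tested on simulated data.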

Additional observations from a re-analysis of the deposited data

How the results depend on the processing

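Totals over the 10 genes kept within 1.5 times their value under every setting tried but the stricter threshold, while counts of single genes moved more. Summits numbered 35, and 21 among the 1976 strongest peaks, 27 with the nearest gene by body (all 8 brk summits lost), 31 with a reach of 5 kb, 35 with 20 kb, and 35 to 40 when each replicate's own 3953 strongest entries replaced the thresholded list. Among the 1976 strongest, brk had 5 summits, shn 5, and Mad, tkv and Dad 1 each. In the list of replicate 2, Mad had 1 summit, brk had 2 promoter summits and Dad 1. Genes with a summit numbered 9 to 10 in the replicates' lists, since replicate 1 alone gave dpp a summit. Genes with a promoter summit numbered 4 to 5 there, 3 with a window of 250 bp and 5 with 1000 bp. Of the other pathway genes 11 had a promoter summit, 7 with 250 bp, 14 with 1000 bp, 8 among the 1976 strongest and 10 to 14 in the replicates' lists. The share matched in both replicates was 95.2% among the 1976 strongest, and 60.0 to 82.9% with other match rules. The median signal value rose to 358.7 there, by construction, and was 264.4 with 1 summit per cluster. The C-rich share was 5.71 to 10% in the replicates' lists, 14.3% among the 1976 strongest and 8.57% with 150 bp, where the share of all thresholded summits was 24.1%. The strongest summit of each of the 9 genes was among the 3953 strongest entries of both replicates. No paired analysis was possible because there is 1 group. With 35 summits, shares have wide intervals, and without read counts a missing summit, as at dpp, cannot be told from low depth.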

Other observations

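The CG1677 intron that contains brk held 14 thresholded summits in all. The 6 not given to brk lay downstream of it, the nearest 7823 bp past its end. They were nearest to the starts of Atg5 (signal values 178.4 and 149.4), Dok (235.5 and 167.7) and CBP (349.9 and 236.6). All 6 were weaker than the 4 strongest brk summits. The best of them, 284 bp from a CBP start, ranked 1115th in replicate 1 and 571st in replicate 2.

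The intervals of the brk promoter peak and of the bi promoter peak both ended on the base before an annotated start. Of the 3953 thresholded intervals, 5 ended there with respect to a protein-coding start, and 4 ended on the start itself. This was looked for after the 2 intervals had been seen.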
